A study of Homo sapiens with 4 samples.

Results

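Dense clusters of PML/RARA peaks are stretches of the NB4 genome in which many binding sites called with a PML/RARA antibody lie close together. Neighbouring PML/RARA peaks on chromosomes 1 to 22 were joined when the gap between them was at most 0.0125 Mb, and joined regions with 6 or more peaks were kept. This gave 1245 clusters out of 20915 joined regions (5.95%), and they held 12740 of the 45085 PML/RARA peaks on these chromosomes (28.3%). NB4 is a human acute promyelocytic leukemia cell line that carries the PML and RARA gene fusion. It was profiled by CUT&Tag, in which an antibody guides a transposase that cuts and tags nearby chromatin, with 1 library each for PPARα, for PML/RARA and for an IgG control named for each of these antibodies. The labels name no drug, dose or time, and all 4 libraries come from the same line. The 2 antibodies have 1 peak list each and no replicate, so no difference below has a replicate check, and intervals are 95% Clopper-Pearson intervals that cover counting error over peaks, clusters or genes only. The clusters were chosen by the positions of the PML/RARA peaks, so the values of that list are given as a description. The PPARα peak list and the gene annotation had no part in the choice.

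PML/RARA joins the RARA DNA-binding and ligand-binding domains to the PML protein, which lets the fusion assemble into multimers, recruit corepressors and hold promyelocytes short of full maturation until retinoic acid or arsenic degrades it. PPARα is a nuclear receptor that is activated by fatty acids and drives genes of fatty acid oxidation. Both PPARα and RARA pair with RXR receptors and read repeats of a shared hexamer. In many cells, long stretches packed with factor binding sites mark genes that define the lineage, and such stretches are often called super-enhancers. That name is usually given from Mediator or histone acetylation signal, which was not analysed here, so the stretches below are called clusters only.

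Promoter sequences of 6 genes, from 5 clusters, show sequence at or beside the peaks described below. They are the 250 bases before the annotated start, 5′ to 3′ on the gene's strand, from RefSeq on GRCh38.p14, and they were chosen after the values were seen. Capitals mark a match on either strand to TGACGTCA, the palindromic element read by CREB and ATF factors, in JUND (a subunit of AP-1) and CDC37 (a kinase co-chaperone). In COPZ1 (a vesicle coat subunit) they mark CCGGAAG, a core read by ETS factors. In TSEN34 (a tRNA splicing endonuclease subunit) and PRTN3 (the granule protease proteinase 3) they mark GAGGAAG, a core read by the myeloid ETS factor PU.1. In MED16 (a Mediator subunit) they mark AGGTCA, the hexamer read by RAR, RXR and PPAR receptors. Counted over these bases and the 50 after the start, the first 4 genes have summits of both lists, and PRTN3 and MED16 have a PML/RARA summit only. The MED16 summit lies 1 base inside the gene, past the printed stretch. Its peak covers only the part of the stretch nearest the start, and the marked AGGTCA match lies outside the peak.
JUND: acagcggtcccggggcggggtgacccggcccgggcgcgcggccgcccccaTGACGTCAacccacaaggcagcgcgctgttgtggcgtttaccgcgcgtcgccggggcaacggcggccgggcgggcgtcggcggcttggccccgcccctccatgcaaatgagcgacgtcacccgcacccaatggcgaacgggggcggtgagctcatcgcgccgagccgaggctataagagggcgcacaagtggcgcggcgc
CDC37: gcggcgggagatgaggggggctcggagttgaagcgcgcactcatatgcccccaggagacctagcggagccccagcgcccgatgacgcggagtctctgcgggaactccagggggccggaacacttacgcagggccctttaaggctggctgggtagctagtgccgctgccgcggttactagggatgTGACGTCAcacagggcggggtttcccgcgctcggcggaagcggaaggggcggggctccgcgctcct
COPZ1: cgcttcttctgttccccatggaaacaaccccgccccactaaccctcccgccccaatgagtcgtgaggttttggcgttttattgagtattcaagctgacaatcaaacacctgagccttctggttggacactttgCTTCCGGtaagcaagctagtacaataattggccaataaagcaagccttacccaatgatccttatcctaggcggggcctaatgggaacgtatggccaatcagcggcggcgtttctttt
TSEN34: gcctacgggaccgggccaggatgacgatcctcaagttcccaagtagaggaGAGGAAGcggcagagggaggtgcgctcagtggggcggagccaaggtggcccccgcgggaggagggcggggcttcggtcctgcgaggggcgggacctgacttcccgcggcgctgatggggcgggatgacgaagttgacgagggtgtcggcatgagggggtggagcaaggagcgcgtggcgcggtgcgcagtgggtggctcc
PRTN3: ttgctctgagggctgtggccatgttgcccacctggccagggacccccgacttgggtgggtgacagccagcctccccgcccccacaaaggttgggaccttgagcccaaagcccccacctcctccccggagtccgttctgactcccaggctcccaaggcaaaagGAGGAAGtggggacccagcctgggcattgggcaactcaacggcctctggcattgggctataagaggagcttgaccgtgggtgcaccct
MED16: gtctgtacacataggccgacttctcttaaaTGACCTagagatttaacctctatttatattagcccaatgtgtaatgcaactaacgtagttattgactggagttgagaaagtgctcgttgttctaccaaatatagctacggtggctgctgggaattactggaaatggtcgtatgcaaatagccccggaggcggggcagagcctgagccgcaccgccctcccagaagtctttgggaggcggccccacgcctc

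Each listed gene's first annotated start gave 26246 promoter windows, from 250 bases before to 50 bases after the start, and 2672 of them lay in a dense cluster. A PML/RARA summit fell in 54.3% of the windows in clusters and in 29.1% of all windows, a difference that the choice of clusters by these same peaks favours. The GC-box core GGGCGG was present in 78.2% of the 1452 cluster windows with a PML/RARA summit, in 76.2% of the 6177 such windows outside clusters and in 44.7% of all windows. CCGGAAG was present in 20%, 23.4% and 10.7% of the same 3 sets. TGACGTCA was present in 3.37%, 4.27% and 2%. The receptor hexamer AGGTCA was present in 9.57%, 9.34% and 13.9%, and a direct repeat of it with 1 base between the copies in 0 of 1452, 2 of 6177 and 6 of 26246 windows. GAGGAAG was present in 182 of 1452, 919 of 6177 (14.9%) and 3529 of 26246 windows (13.4%). Its interval in the cluster windows with a PML/RARA summit was 10.9 to 14.3%. That interval holds the share over all windows, so GAGGAAG was not seen to be raised in clusters. Motifs were searched on both strands, matches to different motifs may overlap, and the sets differ in base composition, with a median GC content of 68.3%, 66.7% and 58.3%. Cluster windows with summits of both lists held CCGGAAG in 26.3% of 205 cases (20.5 to 32.9). Those with a PML/RARA summit alone held it in 19% of 1247 (16.9 to 21.3), so the intervals overlapped. The median GC content was 65% with both summits and 69% with the PML/RARA summit alone.

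The clusters ranged in length between 5.54 and 392 kb, with a median of 39.0 kb and quartiles of 28.4 and 55.6 kb. They held a median of 8 peaks. Of the 1245 clusters, 447 held at least 10 peaks, 81 at least 20, 21 at least 30 and 7 at least 50. Neighbouring peaks within a cluster lay a median of 4.59 kb apart, against 11 kb between all neighbouring PML/RARA peaks. The clusters spanned 59.0 Mb, of which peaks covered 4.20 Mb, and the median cluster was inside peaks over 6.97% of its length. The median PML/RARA fold, the authors' enrichment over background, was 6.43 in clusters and 7.85 outside, and the median −log10 q was 13.7 in clusters and 11.2 outside. Just inside the threshold, 351 regions of 6 peaks had a median length of 26.9 kb, and just outside it 534 regions of 5 peaks had a median length of 20.9 kb.

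**Figure D1:**
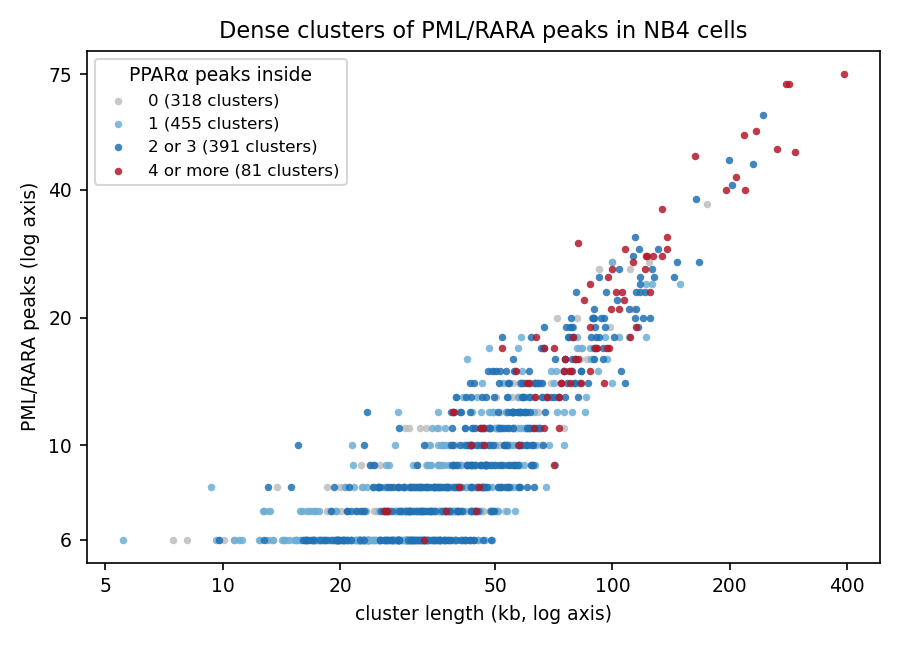
Length in kb (x axis, log scale) against the number of PML/RARA peaks (y axis, log scale) for the 1245 dense clusters, coloured by the number of PPARα peaks inside. The 81 clusters with 4 or more PPARα peaks lie mostly among the longer clusters, which reach 392 kb and 75 PML/RARA peaks, and 318 clusters hold none.

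Within clusters the peaks lay less often at gene ends than over all peaks outside, but the share had already fallen below the threshold. A summit within 1 kb of either end of a protein-coding gene was found for 23.3% of the PML/RARA peaks in clusters (22.6 to 24.1) and for 28.2% of those outside (27.7 to 28.7), with 26.8% over all 45085 peaks. By region size this share was 30.5% for single peaks, 22.7% for regions of 4 peaks and 21.9% for regions of 5. It was 20.9% for regions of 6, 23.5% for 7 to 9 and 24.5% for 10 to 14. Summits farther inside protein-coding genes made up 47.6% in clusters and 40.2% outside, and summits between annotated genes 21.9% in clusters and 22.8% outside. Where the annotation gives a start site, 17.9% of summits in clusters lay within 1 kb of a start, against 24.6% outside, while 4.07% in clusters and 1.74% outside lay near a finish and away from any start. The clusters touched a median of 2 protein-coding genes, 162 touched 5 or more, 407 touched 1 and 111 touched none. In 306 clusters no peak lay near a coding gene end, and 115 clusters lay wholly inside 1 gene.

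Chromosome 19 carried 158 of the clusters (12.7%), and 58.4% of its PML/RARA peaks lay in them. Chromosome 17 had 125 clusters with 41.1% of its peaks, and chromosome 16 had 92 with 39.9%. Chromosome 18 had 5 clusters with 10% of its peaks, and chromosome 2 had 45 with 13.8%. Per 100 protein-coding genes, chromosome 19 held 10.9 clusters, chromosome 16 held 10.8, chromosome 17 held 10.7 and chromosome 18 held 1.85. Chromosome 1 had 133 clusters, or 6.45 per 100 coding genes.

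PPARα peaks were found in most clusters, and their number grew with cluster size. A PPARα peak lay in 927 of the 1245 clusters (74.5%, 71.9 to 76.9), against 35.2% of the joined regions of any size. There were 318 clusters with no PPARα peak, 455 with 1, 269 with 2, 122 with 3 and 81 with 4 or more, and the highest number was 13. The share holding one was 26.1% for single peaks, 54.3% for regions of 5 peaks, 63.8% for regions of 6 peaks, 83.8% for 10 to 14 peaks and 90.7% for 15 to 24 peaks. A region with more peaks has more chances to hold a PPARα peak, so this share alone does not set the clusters apart. By gene content, 93.8% of clusters touching 5 or more coding genes held a PPARα peak, against 78.4% of those touching 2 to 4, 63.6% of those touching 1 and 65.8% of those touching none.

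Peak by peak, PPARα overlap was less frequent inside clusters than over all peaks outside, and it already fell with region size below the threshold. The overlapping share was 26.1% for single peaks, 17.5% for regions of 4 and of 5 peaks and 16.5% for regions of 6. Of the PML/RARA peaks, 15.6% in clusters (15 to 16.3) and 23.5% outside (23.1 to 24) shared at least 1 base with a PPARα peak, with 21.3% over all peaks. The share was lower in clusters on all 22 chromosomes. On chromosome 19 it was 15.9% in clusters and 19.7% outside, and on chromosome 8 it was 8.95% in clusters and 23.3% outside. On chromosome 22 the shares were closer, 12.3% in clusters and 14.1% outside, and no intervals were computed by chromosome. Near coding gene ends it was 31.8% in clusters and 50% outside, and away from them 10.7% in clusters and 13.1% outside. At annotated starts it was 36.7% in clusters and 53.4% outside, and at finishes away from any start 11.8% in clusters and 11.5% outside. Seen from the PPARα list, 1779 of its 9573 peaks lay in clusters (18.6%). Of these, 97.7% overlapped a PML/RARA peak, against 88.3% of the PPARα peaks outside clusters and 90% of all of them. A PPARα peak counted as in a cluster when it shared a base with it. PPARα peaks far from any PML/RARA peak could therefore only fall outside, and the assignment itself favours this difference. Near gene ends the shares were 99.1% in clusters and 97.6% outside, and away from them 96.4% and 77.2%. The PPARα fold was a median of 5.94 in clusters and 6.35 outside.

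Weighting by peak height moved this gap in a direction that depended on the measure of height. PML/RARA peaks were sorted into deciles by fold, and into those near to and away from gene ends. Near gene ends the share with a PPARα peak was lower in clusters in 10 of 10 deciles, and in 4 of them the interval in clusters lay wholly below that outside. It ranged between 6.58% and 67.9% in clusters and between 11.8% and 77.0% outside. Away from gene ends it was lower in clusters in 7 of 10 deciles, every pair of intervals overlapped, and the largest shares were 41.8% in clusters and 48.9% outside. Weighted to the fold deciles and places of the cluster peaks, the share outside came to 18.2%, against 15.6% observed in clusters. Weighted to deciles of −log10 q and places it came to 25.5%. Fold and q are measures of the same contrast as the rule, and which of them is the better match was not tested.

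**Figure D2:**
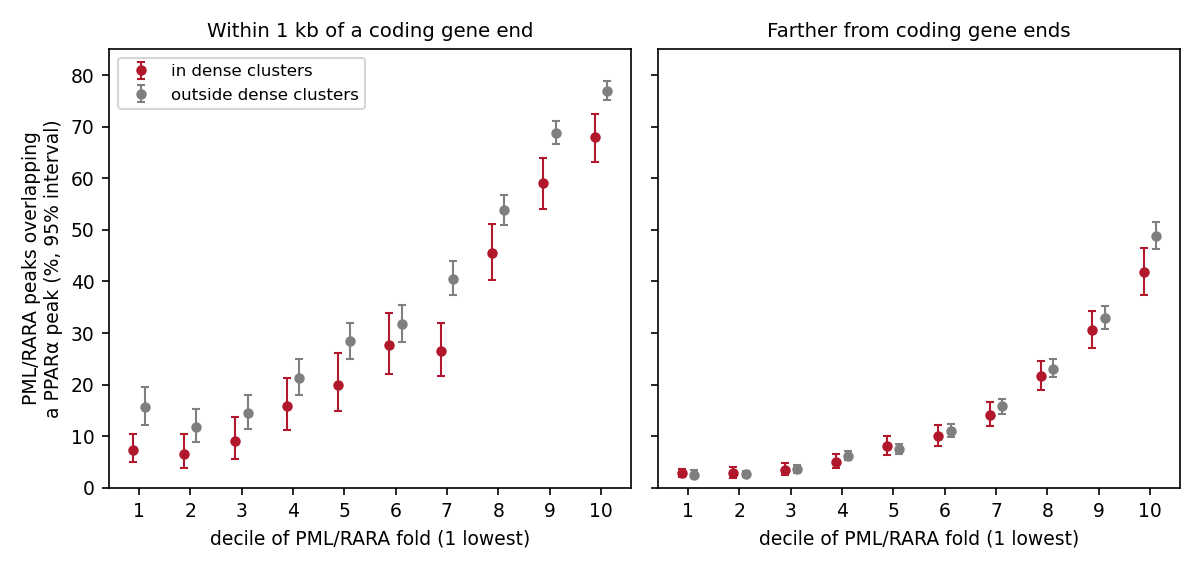
Percent of PML/RARA peaks that overlap a PPARα peak (y axis, with 95% Clopper-Pearson intervals) by decile of PML/RARA fold (x axis), in dense clusters and outside them, within 1 kb of a protein-coding gene end (left) and farther away (right). Near gene ends the cluster points lie below the points outside in 10 of 10 deciles, and away from gene ends the intervals overlap in each decile.

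Within a cluster, PPARα was concentrated on the highest PML/RARA peaks, and outside clusters too its share was larger at high fold. The peak with the highest fold overlapped a PPARα peak in 45.6% of clusters (42.8 to 48.4). The next in rank did so in 30.1%, then 22.9%, 14.1%, 10.8% and 8.92% down to the sixth, and 6.45% of the peaks ranked seventh or lower did. The share of peaks near a gene end ran down the same ranks from 38.7% to 20.4% at the sixth, a shallower slope. Highest peaks near a gene end overlapped PPARα in 60.4% of 482 clusters, and highest peaks away from one in 36.3% of 763. The median fold ran down the ranks from 18.2 to 5.2 at the sixth. Among near-end peaks outside clusters, PPARα overlapped 15.6% in the lowest fold decile and 77% in the highest. For the other peaks outside clusters these shares were 2.57% and 48.9%. Whether rank within a cluster matters beyond fold was not tested. The outermost peaks of a cluster overlapped PPARα in 16.6% of cases (15.1 to 18.1) and the inner peaks in 15.4% (14.7 to 16.1), so the intervals overlapped. Inside clusters there were 7.16 PML/RARA peaks per PPARα peak, and outside 4.15. The rule chose clusters by their number of PML/RARA peaks, so this ratio is a description and not a separate result. The same joining rule applied to the PPARα list gave 8678 regions, of which 2 held 6 or more peaks.

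**Figure D3:**
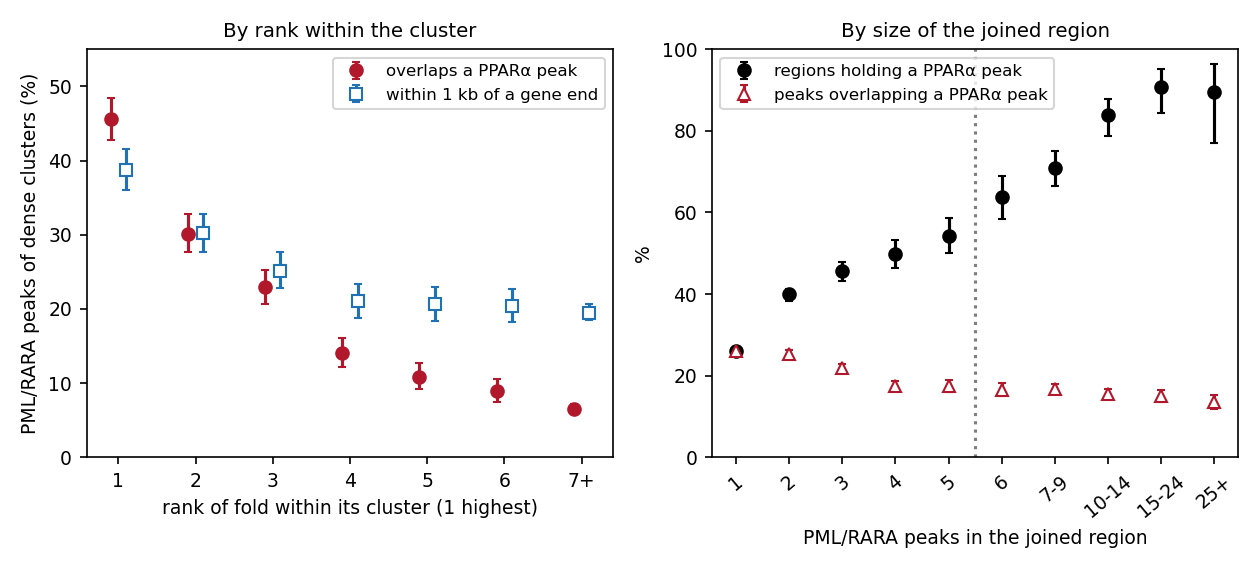
Left, percent of cluster peaks that overlap a PPARα peak or lie within 1 kb of a gene end (y axis) by the rank of their PML/RARA fold in the cluster (x axis). Right, percent of joined regions that hold a PPARα peak and percent of their PML/RARA peaks that overlap one (y axis) by number of PML/RARA peaks (x axis), with the threshold of 6 peaks as a dotted line. Bars are 95% Clopper-Pearson intervals, the left panel falls to 6.45% at rank 7 and lower, and in the right panel the 2 measures part as regions grow.

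The largest cluster lay on chromosome 19 around JUND, at chr19:18152414-18544226 on hg38. It held 75 PML/RARA peaks over 392 kb, touched 16 coding genes and held 8 PPARα peaks. Its PPARα peaks sat at the starts of PIK3R2 (a regulatory subunit of PI3-kinase), MPV17L2, RAB3A, JUND, LSM4 and ELL (an elongation factor), and at 2 sites inside SSBP4. The JUND start peak had a PML/RARA fold of 14.3 and a PPARα fold of 4.99. The highest PPARα fold in this cluster was 17.2, at PIK3R2. No PPARα peak had IFI30, GDF15 or LRRC25, which also lie in the cluster, as its nearest gene.

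The cluster of intercellular adhesion molecules, chr19:10219763-10436691, held 54 PML/RARA peaks and 10 PPARα peaks over 217 kb. ICAM1, the endothelial and leukocyte ligand of the β2 integrins and a gene induced by retinoic acid in myeloid cells, had a start peak of PML/RARA fold 16.2 that shared a PPARα peak of fold 6.95. The highest PML/RARA fold, 21.7, stood at the start of TYK2, the Janus kinase of interferon receptors, with a PPARα fold of 5.86. CDC37, whose promoter is printed above, had folds of 15.9 for PML/RARA and 7.71 for PPARα. The highest PPARα fold was 18.9, at the start of the mitochondrial ribosomal gene MRPL4. In this cluster 11 PML/RARA peaks overlapped PPARα, and 8 of these were among the 9 peaks with the highest fold.

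The 2 regions with 6 or more PPARα peaks under the joining rule lay in clusters that were picked after their values were seen. At chr19:54159470-54266308 the PPARα peaks ran over LENG1, TMC4, MBOAT7, TSEN34 and RPS9, with 22 PML/RARA peaks in all. The TSEN34 promoter peak had folds of 12.6 for PML/RARA and 10 for PPARα. No PPARα peak lay at the leukocyte immunoglobulin-like receptor genes LILRB3, LILRA6 and LILRB5 of the same cluster. The other region was in the histone gene cluster at chr6:26156260-26217354, where 8 PPARα peaks and 14 PML/RARA peaks covered genes of histones H1, H2A, H2B, H3 and H4, and 12 of the 14 lay near a gene end. H4C4 had folds of 17.2 for PML/RARA and 11.6 for PPARα. Histone genes and the LILR genes have close copies, so the placement of reads among them is uncertain.

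Other clusters had many PML/RARA peaks and no PPARα peak. The largest, chr7:74254257-74429285, held 37 peaks over RFC2 (a clamp loader subunit) and CLIP2 (a microtubule-binding linker protein), with a fold of 29.0 at 18.5 kb from its start and 25.1 at the RFC2 start. A cluster of 27 peaks, chr16:85347101-85447075, lay wholly inside GSE1, a subunit of a histone deacetylase corepressor complex, with no peak near a coding gene end and a highest fold of 27.2. GSE1 held 6 clusters in all. The other 5 had 14, 13, 10, 8 and 6 peaks, and those of 14 and 8 peaks held 2 and 1 PPARα peaks while the remaining 3 held none. The other 3 large clusters without PPARα lay over NOXA1 and PNPLA7 (27 peaks), OAZ1 and LSM7 (26 peaks), and PRPF6 and RGS19 (26 peaks). The 927 clusters with PPARα had a median of 8 PML/RARA peaks and a median highest fold of 19.5, and the 318 without had 7 peaks and 14.3. The −log10 q was 338 at the highest peak of the RFC2 and CLIP2 cluster and 326 at that of the GSE1 cluster.

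**Figure D4:**
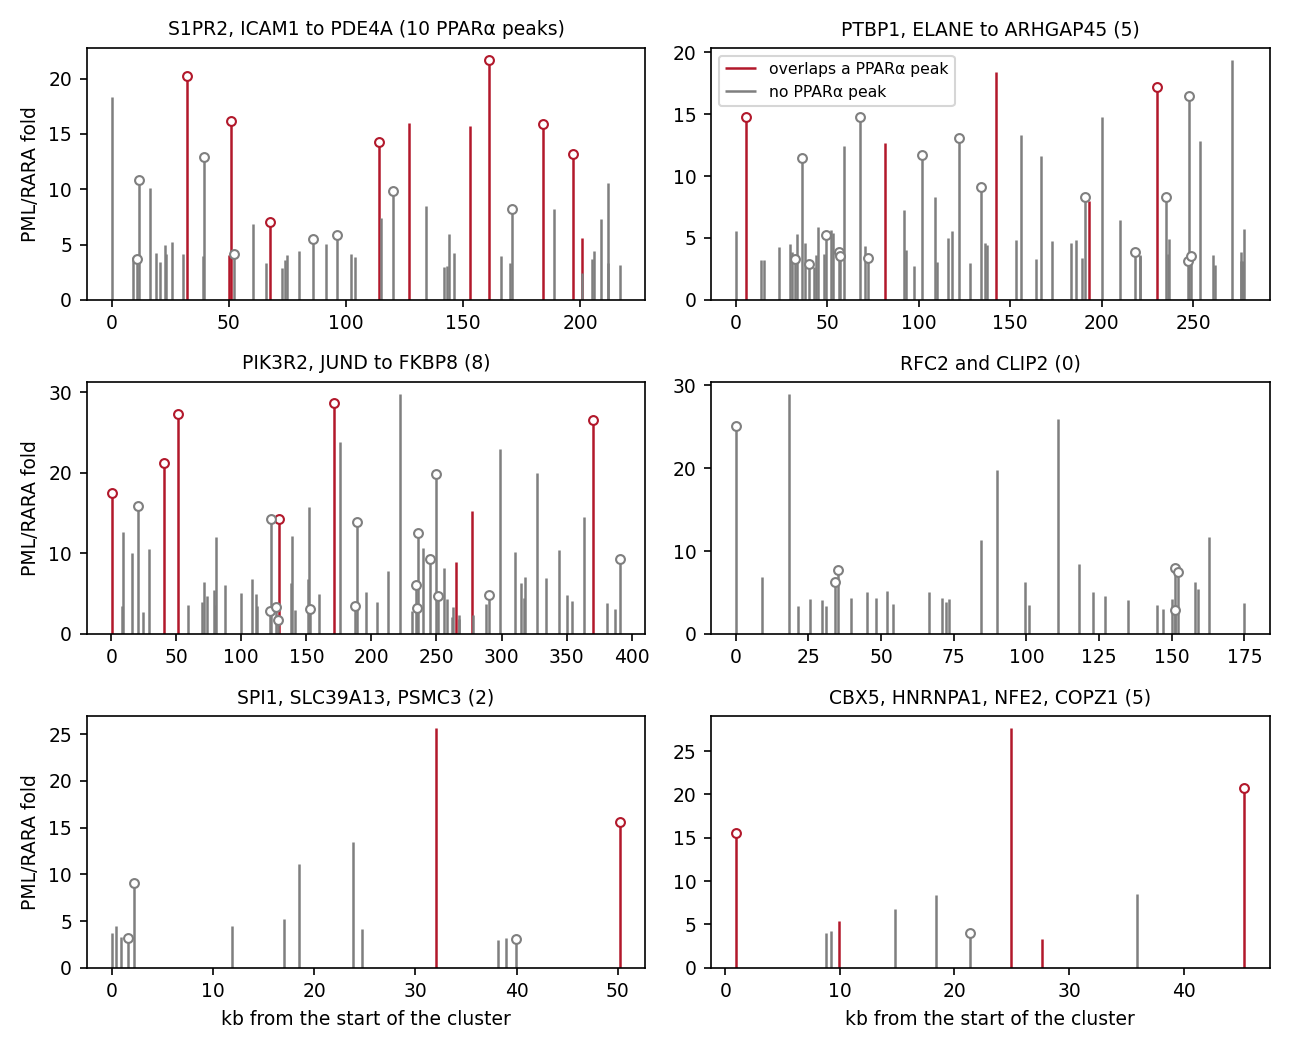
PML/RARA peaks of 6 dense clusters, each a vertical line at its summit (x axis, kb from the start of the cluster) with the height of its PML/RARA fold (y axis, own scale per panel). Red lines overlap a PPARα peak, grey lines do not, and open circles mark summits within 1 kb of a coding gene end. Red lines are mostly tall ones, none is seen over RFC2 and CLIP2, and the highest line stands at a fold of 29.8, in the panel around JUND.

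Several genes of neutrophil granules and phagocytes lay in dense clusters. The clusters overlapped 15 of the 41 genes found from this list (36.6%, 22.1 to 53.1), against 15.5% of all 19126 protein-coding genes. Of the 15, 13 lay in a cluster with PPARα (86.7%), as did 2487 of the 2957 overlapped protein-coding genes (84.1%). The azurophil granule genes AZU1, PRTN3 and ELANE, which encode azurocidin, proteinase 3 and neutrophil elastase, share 1 cluster of 71 peaks at chr19:791664-1069556. AZU1 had a start peak of fold 11.5, PRTN3 one of 5.22 and the complement factor D gene CFD one of 14.8. A peak of fold 12.4 lay 1.71 kb from ELANE. None of these carried PPARα. The 5 PPARα peaks of the cluster lay elsewhere in it, with folds of 7.83 at PTBP1 and 11.6 at TMEM259. SRGN, which encodes serglycin, the proteoglycan that packs granule proteases, lay in a cluster of 15 peaks at chr10:69045526-69102077. Only 1 of its peaks lay near a gene end, with a fold of 12.3 and no PPARα, and 3 of its 4 PPARα peaks lay outside the gene, 14.4 kb or more from it. ITGB2, the β2 integrin subunit, shared a cluster of 13 peaks and 2 PPARα peaks with SLX9. FCER1G, an Fc receptor signalling chain, lay in a cluster of 14 peaks with 4 of PPARα, over 9 coding genes. MPO, not among the genes the naming rule selects, lay in a cluster of 7 peaks with 2 of PPARα.

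Among transcription and RNA regulators of the myeloid lineage, 13 of 43 were overlapped (30.2%, 17.2 to 46.1), 12 of them by a cluster with PPARα (92.3%, against 84.1% of all overlapped genes). SPI1 encodes PU.1. Its cluster at chr11:47376343-47426719 held 15 peaks, with 5 between 0.036 and 2.15 kb inside the SPI1 end and folds of 3.14 to 9.12, and then 5 with folds between 4.18 and 13.5 at 9.67 kb and beyond. None of these overlapped PPARα. The 2 PPARα peaks of the cluster lay near SLC39A13, where the PML/RARA fold was 25.7 and the PPARα fold 4.63, and at the start of PSMC3, with 15.6 and 6.56. At NFE2, a bZIP factor of blood cells, 11 peaks and 5 PPARα peaks ran through chr12:54279613-54325389. The highest, fold 27.7, lay 3.47 kb from the NFE2 end and overlapped a PPARα peak of fold 6.83. COPZ1, in the same cluster, had folds of 20.8 for PML/RARA and 7.56 for PPARα at its start. ZFP36L2, which encodes an mRNA decay factor, lay in a cluster of 23 peaks with 6 of PPARα over 106 kb. The peak at its own end had folds of 13.7 for PML/RARA and 7.04 for PPARα. JUNB lay in a cluster of 21 peaks with 2 of PPARα, over 9 coding genes. HOXA9 and HOXA10 share a cluster of 8 peaks whose 1 PPARα peak overlapped no PML/RARA peak.

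Of the genes of retinoid response, 14 of 34 were overlapped (41.2%, 24.6 to 59.3), 11 with PPARα in the cluster (78.6%, against 84.1% of all overlapped genes). RARG, a retinoic acid receptor, lay among 20 peaks at chr12:53174941-53300005. The 4 peaks inside RARG had folds of 7.5, 3.55, 21.8 and 5.23 and no PPARα, and the 3 PPARα peaks of the cluster were at ZNF740, ESPL1 and PFDN5. PRAM1, an adaptor gene first described as a target of PML/RARA, lay in a cluster of 12 peaks with 3 of PPARα, inside HNRNPM, PRAM1 and ZNF414. ISG15, the interferon-induced ubiquitin-like modifier, lay in a cluster of 17 peaks without PPARα, and HIC1, a transcriptional repressor, in one of 14 with 2. The partners of the fusion, picked after their values were seen, lay in clusters too, RARA in one of 11 peaks with 2 of PPARα and PML in one of 8 with 1. RXRA lay in a cluster of 6 peaks without PPARα.

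The largest share of a list was that of signalling and adhesion genes, with 20 of 41 overlapped (48.8%, 32.9 to 64.9). DOK3, an inhibitory adaptor of immune receptors, lay in a cluster of 31 peaks with 8 of PPARα, and PTPN6, the phosphatase SHP-1, in one of 21 with 7. NOTCH1 lay in a cluster of 18 peaks with 2 of PPARα. SOCS3, the feedback inhibitor of cytokine signalling, lay in one of 23 with 2, and MAP3K14, the NF-κB-inducing kinase, in one of 27 with 2. Of the 20 genes, 14 lay in a cluster with PPARα (70%, against 84.1% of all overlapped genes).

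Among genes of the pathways that PPARα is known to control, the shares overlapped were near the background of 15.5%. For fatty acid breakdown 7 of 40 were overlapped (17.5%, 7.34 to 32.8), and each of the 7 had PPARα in its cluster, as did 84.1% of all overlapped genes. ACSL1, which couples long-chain fatty acids to coenzyme A, lay in a cluster of 8 peaks at chr4:184793031-184833832. Its highest, fold 24.3, carried no PPARα, and the next 3, with folds of 13.8, 12.4 and 10.2, carried PPARα of fold 8.44, 4.13 and 4.64. CPT1A, the carnitine palmitoyltransferase that admits fatty acids to mitochondria, lay in a cluster of 9 peaks. The highest, fold 14.7 and 4.85 kb inside the gene from its start, carried the 1 PPARα peak, fold 6.32. ACADVL and ACADS, acyl-CoA dehydrogenases, lay in clusters of 15 peaks with 3 of PPARα and 14 with 2. ANGPTL4, an inhibitor of lipoprotein lipase, lay in one of 15 with 1, and ECI1, an enoyl-CoA isomerase, in one of 9 with 3. For lipid synthesis 6 of 41 were overlapped (14.6%, 5.57 to 29.2). SCD, the stearoyl-CoA desaturase, lay in a cluster of 6 peaks with 3 of PPARα. The peak at its start had folds of 18.4 for PML/RARA and 4.78 for PPARα. SREBF1, a regulator of lipid synthesis, lay in a cluster of 15 peaks with 3 of PPARα, and FASN, the fatty acid synthase, in one of 12 with 2. AGPAT2, an acyltransferase of triglyceride synthesis, lay in one of 38 with 2. NR1H3, the receptor LXRα, lay in one of 6 with 1, and LSS, a cholesterol pathway cyclase, in one of 9 with 0.

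Ribosomal protein genes, which every cell uses, were overlapped in 20 of 50 cases (40%, 26.4 to 54.8), and each of the 20 lay in a cluster with PPARα, as did 84.1% of all overlapped genes. RPL13A lay in a cluster of 43 peaks with 5 of PPARα, RPL18 lay in one of 29 with 8, RPLP2 in one of 28 with 3 and RPL19 in one of 25 with 3. The start of RPS9 had folds of 20.5 for PML/RARA and 6.42 for PPARα. Among lists of other lineages, 3 of 30 lymphoid genes (10%, 2.11 to 26.5), 7 of 22 erythroid and megakaryocyte genes (31.8%, 13.9 to 54.9) and 6 of 34 liver, muscle and neuron genes (17.6%, 6.76 to 34.5) were overlapped. CD4 and CD79A, among the lymphoid genes, lay in clusters of 19 and 9 peaks. KLF1, the erythroid factor, lay in a cluster of 23 peaks over 11 coding genes, and the α-globin genes HBA1 and HBA2, near-identical copies, in one of 7 peaks without PPARα. SLC17A7, a neuronal glutamate transporter, lay in the cluster of RPL13A, and GRIN1, a glutamate receptor subunit, in one of 26 peaks over 15 coding genes. A cluster is counted for each gene it touches, so a listed gene may be covered through its neighbours.

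Short genes were overlapped more often than long ones, with 21.6% of the shortest quintile of protein-coding genes and 6.33% of the longest quintile. The overlapped genes had a median length of 13.8 kb, against 24.5 kb for all. The ribosomal list had a median gene length of 4.75 kb, the myeloid regulators 13.9 kb, the granule and phagocyte genes 15.3 kb and the signalling and adhesion genes 43.6 kb. The part of gene length in the shares of the lists was not tested.

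**Figure D5:**
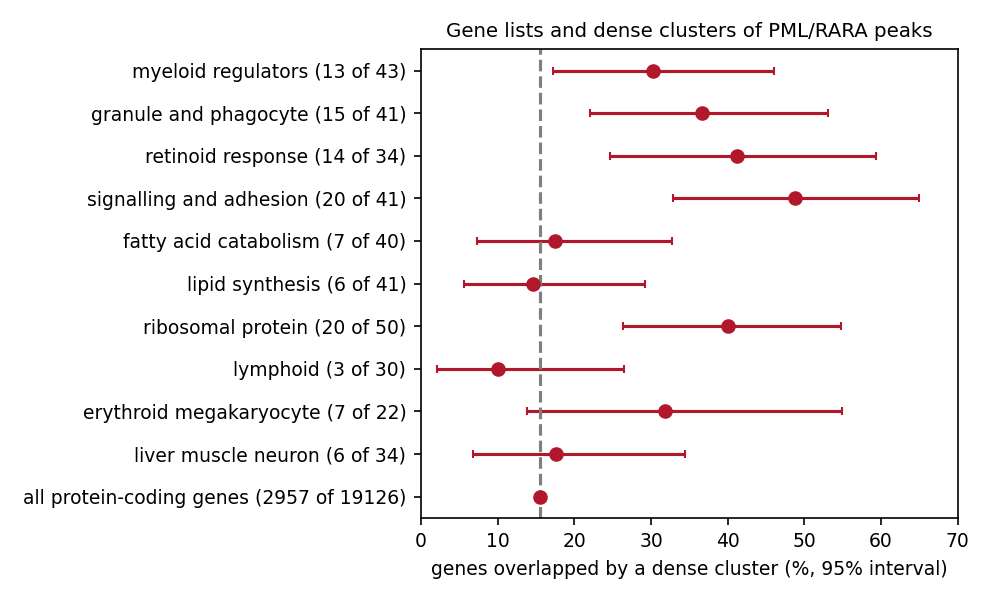
Percent of the genes of each list that a dense cluster overlaps (x axis, with 95% Clopper-Pearson intervals), with the number overlapped and the number found beside each list (y axis). The dashed line is the 15.5% of all protein-coding genes, and the signalling and adhesion list lies farthest to the right at 48.8%.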

How the data were processed

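Peak lists of NB4 cells were used, 1 for the PML/RARA antibody and 1 for the PPARα antibody. The IgG libraries were not analysed here. The deposited lists give each peak's position, summit and a display score. The deposited fold enrichment is a linear ratio, and the deposited q-value and p-value are on the −log10 scale. All of these are the authors' values, and a fold in one list cannot be set against a fold in the other. Per the submitters' processing notes the build is hg38, and they mention the aligner Bowtie2 2.2.9, the peak caller MACS 1.4.2, bedtools and SAMtools. The deposited files use the narrowPeak format, which newer versions of MACS write, so which version called the peaks, and with it how fold and q were computed, is uncertain. The roles, settings and control of these tools, the epitope of the PML/RARA antibody and the read depth are not given in the sources used here. The smallest −log10 q was 1.30 for PML/RARA and 1.32 for PPARα.

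Peaks on chromosomes 1 to 22 were kept, which left out 936 PML/RARA and 256 PPARα peaks. Peaks were joined and counted with Python 3.11.15, pandas 2.3.3 and scipy 1.17.1. A PML/RARA peak overlapped PPARα when the pair shared at least 1 base. Gene positions and promoter sequences come from RefSeq tables of GRCh38.p14. The gene table has no strand, so both annotated ends of a gene were used, and start sites from the promoter table served where it lists one, which was the case for 15101 of the 19126 protein-coding genes. Each antibody has 1 list, so no test was run and shares carry 95% Clopper-Pearson intervals. No sequence of a peak away from annotated promoters was used here.

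Clusters and genes were named by rule: the 10 clusters with most PML/RARA peaks, the 5 longest, the 5 with most peaks per kb, the 10 with most PPARα peaks, the 5 largest without PPARα, the 5 largest without a peak near a gene end, and, for every list of genes, up to 6 of its members. The clusters, the lists and the rule were chosen with earlier results of these data known. Joining and overlap were tested on simulated peaks. Some clusters and genes that the rule selects are left out of the text and stay in the counts.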

Additional observations from a re-analysis of the deposited data

Results flagged for a closer look

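Chromosome X lies outside the rule. Joined the same way, it held 20 regions of 6 or more PML/RARA peaks, with 164 of its 903 peaks (18.2%), and 16 of the 20 held a PPARα peak. The largest, with 19 PML/RARA peaks and 2 PPARα peaks over 93.5 kb, covered genes between RPL10 and SLC10A3. BCOR, which encodes a corepressor of BCL6, was touched by 2 regions of 11 and 10 peaks with 2 PPARα peaks each. CYBB, which encodes the large subunit of the phagocyte oxidase, lay in a region of 10 peaks with 2 PPARα peaks. This signal is set apart because the clusters described above leave the chromosome out.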

How the results depend on the processing

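No paired analysis was possible because each antibody has 1 peak list. Without chromosome 19, 1087 clusters were left. The PPARα share of PML/RARA peaks was lower in clusters than outside in 10 of 10 alternatives that give both. The ratio lay between 0.594 and 0.965, and was 0.664 as reported. The highest ratio came from ranking regions by summed fold times width, where the intervals overlapped (20 to 21.5 and 21 to 21.9). This ranking and the omission of chromosome 19 were chosen after seeing the data. Of 56 recomputed values, 13 stayed within the reported interval, or within 1.5 times for counts.

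Joining within 5 kb left 175 clusters over 248 genes, with PPARα in 53.7% of clusters, 12.8% of cluster peaks, 21.5% of peaks outside and 33.7% of highest peaks, and 25.3% of cluster peaks near gene ends. Joining within 20 kb gave PPARα in 78.1% of clusters and 25.7% of peaks outside, over 5026 genes. At least 10 peaks left 447 clusters over 1600 genes, with PPARα in 86.4% of clusters, 14.9% of cluster peaks, 22.5% of peaks outside and 49.2% of highest peaks. PML/RARA peaks with −log10 q of at least 5 gave 731 clusters over 1739 genes, with PPARα in 80.6% of clusters, 19.8% of cluster peaks and 28.8% of peaks outside, and 26.3% of cluster peaks near gene ends. Leaving out peaks near gene ends gave 743 clusters over 982 genes, with PPARα in 61.6% of clusters, 10.9% of cluster peaks, 12.8% of peaks outside and 32.4% of highest peaks.

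PPARα peaks with −log10 q of at least 5 lay in 55.8% of clusters and overlapped 10.1% of cluster peaks, 16.1% of peaks outside and 32.2% of highest peaks. Overlap of at least 50% of the shorter peak gave 12.8% of cluster peaks, 19.9% outside and 41.4% of highest peaks. Summits within 200 bases gave 8.39%, 13.3% and 28.7%. Windows of 500 bases and 5 kb put 16.8% and 46.9% of cluster peaks near gene ends. Ranking by summed fold times width gave PPARα in 88.6% of regions, 20.7% of their peaks and 21.5% of peaks outside. Every one of these settings changes which peaks or clusters are counted, and no other cause was tested. Read depth is unknown, so a peak below the calling threshold cannot be told apart from none.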

Other observations

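The clusters with most peaks per kb were short. The densest, chr2:87352701-87358241, held 6 PML/RARA peaks in 5.54 kb with 1 PPARα peak and no protein-coding gene. The next lay inside GSE1, with 8 peaks in 9.36 kb and a highest fold of 7.64. A cluster on chromosome 1 of 7.45 kb held 6 peaks and no PPARα, and one inside SORCS2 held 6 peaks in 8.09 kb and no PPARα. The fifth, chr18:96829-112402, held 10 peaks with 2 of PPARα. Their highest folds were between 5.73 and 16.6, against a median highest fold of 18.2 over all clusters.

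Without a nearby coding gene end, the cluster with most peaks after GSE1 was a stretch of 26 peaks at chr1:234908521-235012325 over non-coding RNA genes. It held 3 PPARα peaks, and its highest peak, fold 31.6, carried PPARα. The next held 24 peaks and 1 PPARα peak, and the only coding gene it overlapped was SEPTIN9, a cytoskeletal GTPase gene. Stretches at chr15:75090267-75178767 and chr20:50338572-50461009 held 20 and 18 peaks with 1 PPARα peak each. Over all 306 clusters of this kind, 58.8% held a PPARα peak (53.1 to 64.4), against 79.6% of the 939 with a peak near an end.

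Ranking by number of peaks and ranking by summed fold times width did not choose the same stretches. The 1245 joined regions with the largest sums included 781 of the clusters (62.7%). The other 464 had fewer than 6 peaks, and 54 of them were single peaks. A PPARα peak lay in 415 of the 464, and in 88.6% of all 1245 regions with the largest sums.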
